A study of Mus musculus with 10 samples.

Results

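Chromatin accessibility at the interferon-stimulated genes and interferon-inducible GTPases was compared between naive CD4 T cells of the KO and WT groups. The set held 41 listed genes, and its members were the peaks whose deposited annotation names one of these genes. In all, 148 of the 61581 peaks were members, and 37 of the 41 genes had at least 1 peak. No peak carried the symbol Ifit1, Oas1a, Herc6 or Mx1, and these genes enter no comparison by gene. The start sites of Ifit1 and Herc6 do lie in peaks, which the annotation gives to the neighbouring genes Ifit1bl2 and Ppm1k. The 37 genes had between 1 and 11 peaks each.

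The assay was ATAC-seq, in which a transposase cuts open chromatin and tags the ends for sequencing, on 60000 sorted naive cells (CD3+ CD4+ CD25-, CD44 low or negative, CD62L+) per library from mouse spleen and lymph node. All mice carried the genotype Satb1fl/fl x CD4-CreERT2wt/+, that is, floxed alleles of the chromatin organiser Satb1 and a tamoxifen-dependent Cre whose expression is tied to CD4. The 5 KO libraries came from mice given tamoxifen and the 5 WT libraries from untreated mice of the same genotype. Exposure to tamoxifen and deletion of Satb1 therefore cannot be told apart, and the WT group also carries the floxed alleles and the Cre. The labels give no age and no time after tamoxifen, do not say whether each library is a separate animal, and name no interferon treatment. The spread behind every p-value is thus that of these libraries, which may be technical in part.

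Interferons bind their receptors, and the kinases there activate STAT proteins. Type I interferons act mainly through ISGF3, a complex that contains STAT2 and IRF9 and binds the interferon-stimulated response element (ISRE). The response to interferon gamma runs mainly through the gamma-activated site (GAS). The induced genes encode sensors of viral nucleic acid, enzymes and binding proteins that block viral replication, and GTPases that attack the vacuoles of intracellular pathogens. Many of them keep a low basal level in resting lymphocytes.

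The promoter windows of the members were searched for the letters of these response elements. RefSeq promoter windows on GRCm38.p6, the assembly called mm10 in the deposited files, were on hand for 30 of the 41 genes, in 35 windows that each run from 250 bases before to 50 after a start site. The search used GAAA, any 2 bases and GAAA again for the ISRE and TTCNNNGAA for the GAS, each on both strands. The ISRE letters occurred in 20 of 35 member windows (57.1%) and in 3.44% of all 32851 windows. The GAS letters occurred in 10 of 35 member windows (28.6%) and in 8.30% of all windows, and 6 genes held both. A match is a string of letters and not a measured binding site. Dhx58, Gbp4, Gbp9, Iigp1, Mx1, Mx2, Oas2, Parp14, Parp9, Usp18 and Zbp1 had no window.

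Upstream bases of 7 members, 5′ to 3′ on the strand of the gene and ending at the base before the start site, are printed with the matched letters in capitals. The first 5 hold an ISRE inside an accessible peak that did not pass the test. The last pair, Samhd1 and Ifit2, lie in or beside the promoter peaks that did. The positions are chr4:156200819-156200938, minus strand (Isg15); chr12:26456453-26456602, minus strand (Rsad2); chr11:58199436-58199555, plus strand (Igtp); chr11:48871421-48871540, minus strand (Irgm1); chr3:142530216-142530335, plus strand (Gbp7); chr2:157135097-157135336, minus strand (Samhd1); and chr19:34550968-34551087, plus strand (Ifit2). 
Isg15: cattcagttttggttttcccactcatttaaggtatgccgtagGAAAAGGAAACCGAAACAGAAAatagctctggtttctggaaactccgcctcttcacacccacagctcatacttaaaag
Rsad2: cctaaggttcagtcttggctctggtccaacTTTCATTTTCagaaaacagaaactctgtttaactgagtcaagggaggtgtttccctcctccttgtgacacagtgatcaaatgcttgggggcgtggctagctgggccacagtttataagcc
Igtp: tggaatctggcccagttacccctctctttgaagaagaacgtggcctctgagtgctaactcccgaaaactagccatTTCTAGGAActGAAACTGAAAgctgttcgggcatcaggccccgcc
Irgm1: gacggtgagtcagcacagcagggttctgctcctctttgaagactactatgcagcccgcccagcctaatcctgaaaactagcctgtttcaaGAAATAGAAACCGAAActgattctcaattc
Gbp7: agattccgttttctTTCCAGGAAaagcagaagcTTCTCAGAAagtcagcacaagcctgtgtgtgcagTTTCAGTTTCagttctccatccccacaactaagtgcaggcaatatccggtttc
Samhd1: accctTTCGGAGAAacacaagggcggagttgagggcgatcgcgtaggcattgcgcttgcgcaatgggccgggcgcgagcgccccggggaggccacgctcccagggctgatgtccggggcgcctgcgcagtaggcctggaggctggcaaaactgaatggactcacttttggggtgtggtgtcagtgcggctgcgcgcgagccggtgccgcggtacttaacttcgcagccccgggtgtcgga
Ifit2: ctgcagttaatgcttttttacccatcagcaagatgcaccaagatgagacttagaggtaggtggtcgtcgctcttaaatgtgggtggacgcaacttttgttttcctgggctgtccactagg
In Isg15 and Irgm1 the capitals are overlapping ISRE matches, 3 in Isg15 and 2 in Irgm1. In Igtp a GAS match stands just upstream of the ISRE match, and in Gbp7 a pair of GAS matches precedes the ISRE match. Samhd1 holds only a GAS match, and the Ifit2 stretch, which belongs to the more downstream of its start sites, holds neither set of letters.

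Total counts within peaks ranged from 673398 to 2184717 in the KO libraries and from 1025283 to 2081740 in the WT libraries. In each group 4 of 10 pairs of libraries differed by no more than Poisson sampling noise, although the totals of the libraries in such pairs differed. All 5 libraries were kept in each group, and the calls were recomputed with such libraries merged, which left 3 KO and 2 WT libraries. The 10 T cell genes of the marker list, such as Cd3e and Cd4, all had a promoter peak, with a median WT level of 114 CPM per kb, as did the 6 naive T cell genes. CPM are counts per 1000000 in-peak counts after TMM scaling. None of the 8 B cell genes had one, and 5 of 8 myeloid, 4 of 5 NK cell, 2 of 4 CD8 T cell and 4 of 6 plasmacytoid dendritic cell genes had none. Over all peaks of these lists the summed level overlapped between the groups, at 119 to 180 CPM in KO and 137 to 169 in WT for the myeloid list and at 43.1 to 48.8 against 42.6 to 58.7 for the B cell list. The summed level of the naive T cell list did not overlap, at 2409 to 2596 CPM in KO and 2216 to 2376 in WT, and its part in the results was not tested. Satb1 itself had 388 ± 11.4 CPM over its 26 peaks in KO and 338 ± 13.5 in WT (SD, n = 5). Since no label tells which exons are floxed, this level is no check of the groups.

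Few of the interferon-stimulated genes differed in accessibility between the groups beyond the error of these libraries. Of the 88 member peaks with enough counts to test, 6 passed edgeR's quasi-likelihood test at an adjusted p under 0.05, against 3.85% of all 34910 tested peaks. This is 6.82% of the member peaks. The 5 peaks that rose belonged to Epsti1, Samhd1, Gbp5, Ifit2 and Ifih1 (2.94% of all peaks rose), and the 1 that fell belonged to Gbp9 (0.911% of all peaks fell). The median log2 fold change was 0.03 over the member peaks and -0.01 over all peaks, with 51 member peaks above 0 and 37 below. At an unadjusted p under 0.05 there were 13 member peaks, or 14.8%, against 13.6% of all peaks. The groups did not overlap at 5 of the 88 member peaks, against 3.96% of all tested peaks. Those were the called peaks of Epsti1, Samhd1 and Gbp5, and uncalled promoter peaks of Gbp3 and Oasl1. With libraries within noise merged, 3 of the 6 calls held, those of Epsti1, Samhd1 and Gbp9.

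**Figure D1:**
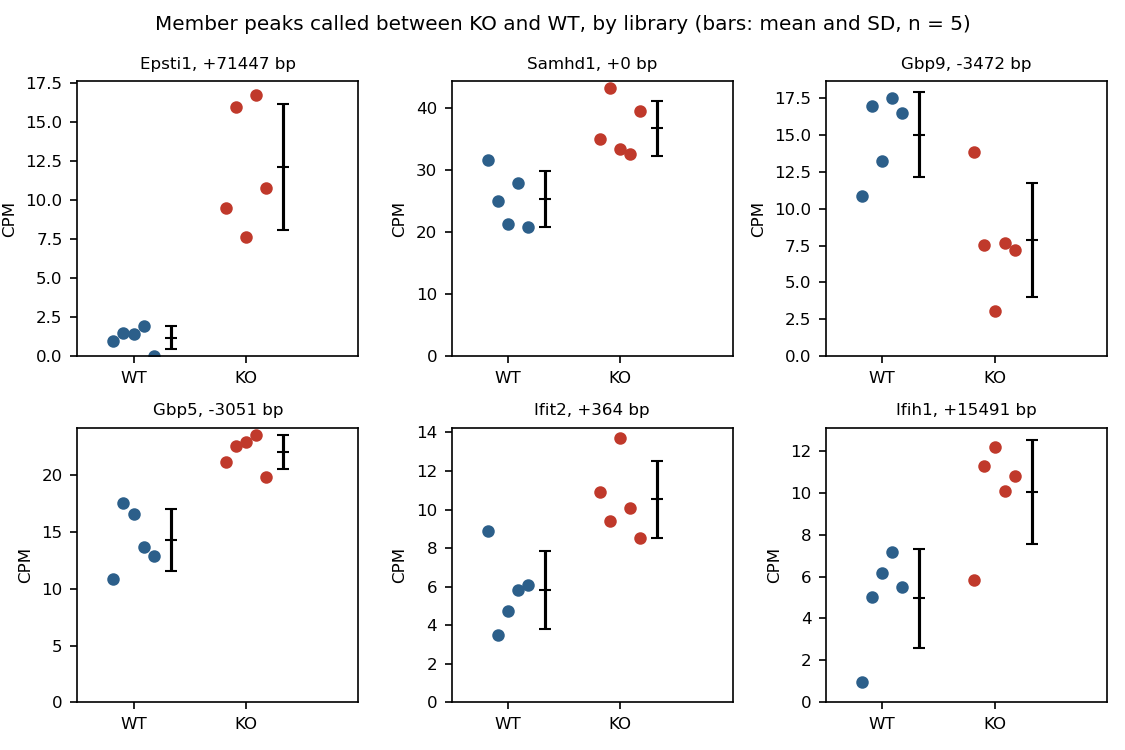
CPM of the 6 member peaks that passed the test, with 1 point per library and the mean and SD of 5 libraries beside them, titled by gene and distance from the start site. KO points lie above all WT points in Epsti1, Samhd1 and Gbp5, and the groups overlap in Gbp9, Ifit2 and Ifih1.

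The largest difference among member peaks was inside Epsti1, an interferon-induced gene named for epithelial-stromal interaction. The peak lies at chr14:77975686-77976032 in an intron of Epsti1, 71447 bases downstream of the start site. Its levels were 9.48, 16.0, 7.62, 16.8 and 10.8 CPM in the KO libraries (in the order Sample_2268_KO, Sample_2269_KO, Sample_2270_KO, Sample_2271_KO, Sample_2272_KO), and 0.989, 1.5, 1.42, 1.95 and 0 CPM in the WT libraries (Sample_2273_WT to Sample_2277_WT), the order used throughout. Every KO library was thus well above every WT library, where the site held few counts. The means were 12.1 ± 4.05 against 1.17 ± 0.739 CPM (SD, n = 5), a 9.97-fold difference (95% interval 6.01 to 16.5) with an edgeR adjusted p of 4.51e-11. The call held in the 17 alternatives that could test the peak, DESeq2 and the merged libraries included. Once every library was thinned to the smallest total, the peak was too low to test.

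The other accessible sites of Epsti1 did not share this difference. The peak over its start site had 18.1 ± 2.60 CPM in KO and 18 ± 3.35 in WT (SD, n = 5), a fold change of 0.985 (edgeR adjusted p = 0.978). A second intronic peak, 23913 bases downstream, had 4.97 CPM in KO and 4.59 in WT and was too low to test. All peaks of Epsti1 summed gave 40.1 ± 6.46 CPM in KO and 28.6 ± 5.46 in WT (SD, n = 5), 1.41-fold with an edgeR adjusted p of 0.0238. The sum was less stable than the peak itself. It lost the call without Sample_2269_KO, Sample_2271_KO, Sample_2273_WT, Sample_2275_WT or Sample_2277_WT, each left out alone, with an edgeR adjusted p of up to 0.189, and had an edgeR adjusted p of 0.0548 with the libraries merged.

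**Figure D2:**
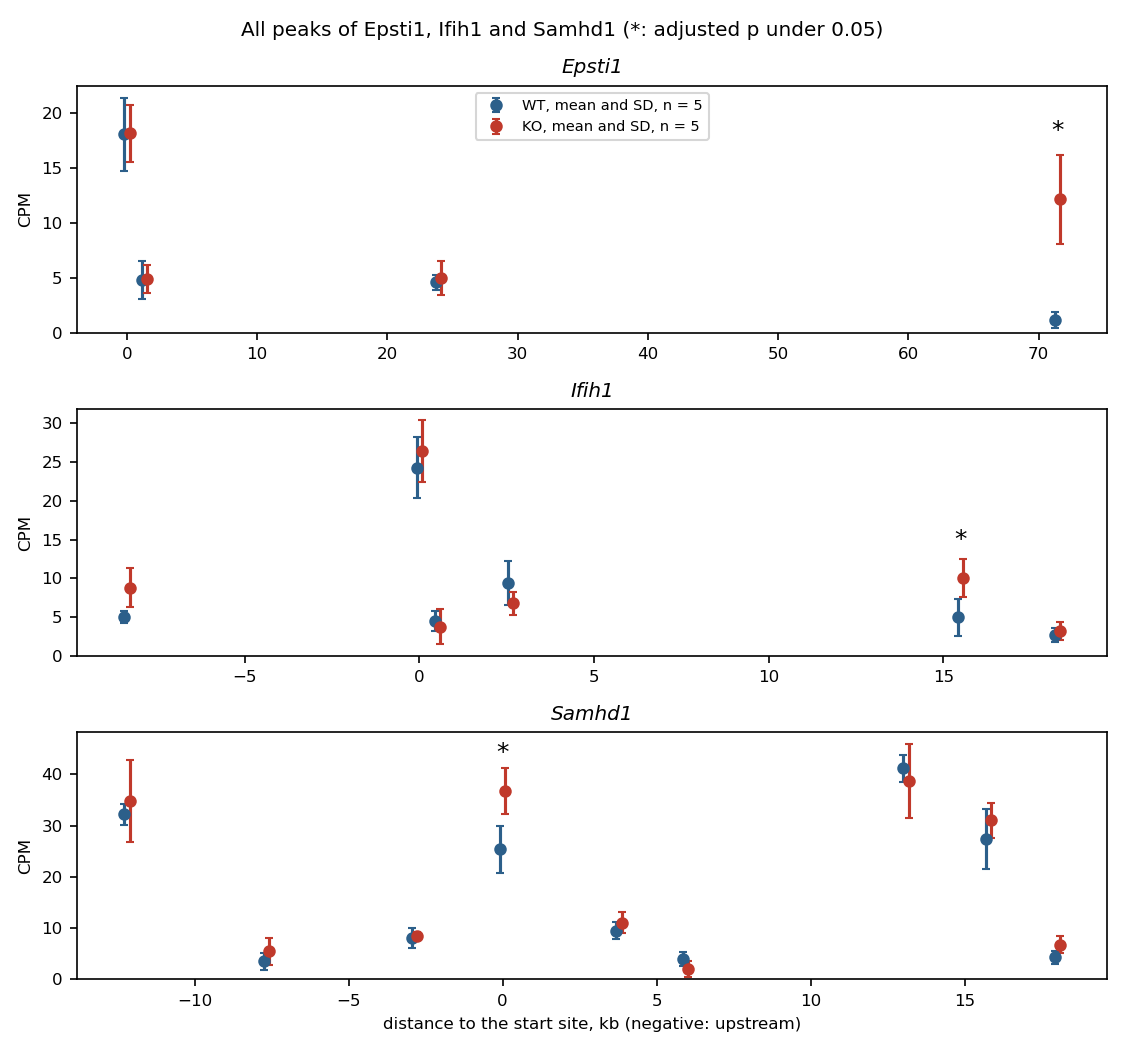
Mean CPM and SD (n = 5) of every peak of Epsti1, Ifih1 and Samhd1 against distance from the start site in kb, WT in blue and KO in red, with asterisks at adjusted p under 0.05. The start-site peaks of Epsti1 and Ifih1 coincide between groups while 1 intronic peak in each is higher in KO, and in Samhd1 the start-site peak is the one that differs.

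Samhd1 encodes a hydrolase that depletes deoxynucleotides and so limits reverse transcription of viruses. The peak over its start site, chr2:157134978-157135435, covers the whole printed Samhd1 stretch and its GAS letters. It had 35.0, 43.2, 33.5, 32.6 and 39.6 CPM in the KO libraries and 31.7, 25, 21.3, 28.0 and 20.8 CPM in the WT libraries. The groups did not overlap, though the lowest KO and the highest WT library were close. The means were 36.8 ± 4.5 and 25.3 ± 4.58 CPM (SD, n = 5), 1.5-fold (95% interval 1.26 to 1.78), with an edgeR adjusted p of 0.00113. This was the only called peak among the 26 tested member peaks that the deposited annotation places over a start site, against 0.738% of all 8811. The call held in 17 of 18 alternatives and was lost with DESeq2, at an adjusted p of 0.125.

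Samhd1 had 9 peaks in all, and the other 8 overlapped between the groups. Summed over the 9, its level was between 168 and 184 CPM in KO and between 151 and 157 in WT, which did not overlap. The edgeR adjusted p of this sum was 0.184 at 1.12-fold. Its promoter peaks summed to 45.2 ± 5.17 and 33.3 ± 2.79 CPM (SD, n = 5), 1.38-fold with an edgeR adjusted p of 0.0181, the only one of 32 member promoter sums to pass, against 0.684% of all 10240 promoter sums. Leaving out Sample_2269_KO, Sample_2272_KO, Sample_2275_WT or Sample_2277_WT ended the call of the promoter sum, with an edgeR adjusted p of up to 0.134, as did DESeq2 (adjusted p 0.460), while it held with the libraries merged (edgeR adjusted p = 0.0439).

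The other enzymes of this kind did not pass. Rsad2, or viperin, makes a nucleotide that terminates viral RNA chains, and Cmpk2, its neighbour on chromosome 12, supplies the triphosphate. The start-site peak of Rsad2, which holds the printed ISRE match, had 36.5 CPM in KO and 33.9 in WT (edgeR adjusted p = 0.823). For Cmpk2 the start-site peak had 29.4 and 23.8 CPM, 1.21-fold with an edgeR adjusted p of 0.361. Isg20, an exonuclease of RNA, summed to 59.1 ± 8.13 and 54.3 ± 7.88 CPM (SD, n = 5), 1.12-fold with an edgeR adjusted p of 0.558. 

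Among the interferon-induced RNA-binding proteins, Ifit2 and Ifit3 had peaks under their own symbols. The peak over the start site of Ifit1, chr19:34640646-34641048, which the annotation gives to Ifit1bl2, had 26.1 ± 2.64 CPM in KO and 24.2 ± 4.15 in WT (SD, n = 5; edgeR adjusted p = 0.883). Ifit2 has a peak over the start site used by the annotation and a weaker one 364 bases downstream, at chr19:34551058-34551217. The weaker peak overlaps the end of the printed Ifit2 stretch, so the second RefSeq start site of Ifit2, the base after that stretch, lies inside it. The weaker peak had 10.9, 9.40, 13.7, 10.1 and 8.54 CPM in KO and 8.90, 3.5, 4.74, 5.85 and 6.11 CPM in WT. One WT library, Sample_2273_WT, lay above the lowest KO library. The difference was 1.84-fold (95% interval 1.28 to 2.63) with an edgeR adjusted p of 0.0365. It is near the threshold: it was called in 7 of 17 alternatives, was lost on removal of any one of Sample_2277_WT, Sample_2276_WT, Sample_2275_WT, Sample_2274_WT, Sample_2271_KO, Sample_2270_KO and Sample_2268_KO (edgeR adjusted p up to 0.174), and had an edgeR adjusted p of 0.0807 with the libraries merged. The peak over the first start site had 43.1 CPM in KO and 40.8 in WT, 1.13-fold with an edgeR adjusted p of 0.518. Over all its peaks Ifit2 had 73.6, 64.9, 54.9, 75.2 and 74.2 CPM in KO and 70.2, 48.0, 54.5, 63.1 and 66.6 CPM in WT, which overlapped (1.21-fold, edgeR adjusted p = 0.111).

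Neither tested peak of Ifit3 passed. They had 12.6 against 13.0 CPM and 9.17 against 9.99 CPM in KO and WT, and neither lies at its start site. Upstream of Ifit2, at chr19:34510750-34511174, an exonic peak of Lipa, the gene of lysosomal acid lipase, fell from 22.4 ± 2.09 CPM in WT to 11.4 ± 3.70 in KO (SD, n = 5), a fold change of 0.567 with an edgeR adjusted p of 0.000707. It was the only called peak of another symbol within 100 kb of the 6 called member peaks. Lipa was named after its values were seen.

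The oligoadenylate synthetases sense double-stranded RNA and activate RNase L, and Oasl1 is a relative that restrains Irf7 translation. None of the 4 tested genes of this kind passed. Oasl1 had a single peak, 888 bases upstream of its start site, with 55.4, 53.6, 57.9, 58.0 and 53.5 CPM in KO and 71.2, 61.0, 69.2, 72.8 and 64.8 CPM in WT. All KO libraries lay below all WT libraries, and the difference was 0.827-fold as a gene sum with an edgeR adjusted p of 0.102. No alternative called it. Oasl1 and Samhd1 were the 2 of 36 gene sums whose groups did not overlap, against 3.25% of all gene sums. Oas3 had 78.9 CPM in KO and 78.2 in WT, Oasl2 had 48.0 in KO and 49.0 in WT, and Oas2, with 12.4 ± 6.21 against 15.3 ± 3.86 CPM (SD, n = 5), was too variable to place.

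The cytosolic RNA helicases Ddx58 (RIG-I), Ifih1 (MDA5) and Dhx58 (LGP2) detect viral RNA. Ifih1 held the 1 called peak of this kind, at chr2:62630529-62630764 in an intron, 15491 bases downstream of the start site. It had 5.83, 11.3, 12.2, 10.1 and 10.8 CPM in KO and 0.989, 5.00, 6.16, 7.15 and 5.50 CPM in WT. Sample_2268_KO fell within the WT range and the other 4 KO libraries were above it. The difference was 1.85-fold (95% interval 1.27 to 2.70), with an edgeR adjusted p of 0.0449. The call held in 5 of 17 alternatives and when only Sample_2268_KO or Sample_2276_WT was left out, while leaving out any of the other 8 libraries ended it (edgeR adjusted p up to 0.158), as did merging (0.0754).

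All non-promoter peaks of Ifih1 summed to 22.1 ± 2.15 CPM in KO and 12.7 ± 2.27 in WT (SD, n = 5), 1.69-fold with an edgeR adjusted p of 0.00191. That call held with any 1 library left out and with the libraries merged (edgeR adjusted p = 0.00915), and was lost with thinning to the smallest total (edgeR adjusted p = 0.137). An untested peak 8370 bases upstream contributed to this sum, with 8.80 CPM in KO and 5.02 in WT. The start-site peak of Ifih1, which holds an ISRE match, had 26.4 and 24.3 CPM (edgeR adjusted p = 0.776). Ddx58 had 50.0 ± 5.16 and 53.6 ± 4.20 CPM over its peaks and Dhx58 had 37.8 ± 4.53 and 37.2 ± 5.39 in KO and WT (SD, n = 5), and neither passed.

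The guanylate-binding proteins are large GTPases that coat and break pathogen vacuoles. They lie in clusters on chromosomes 3 and 5, and their genes are close copies, so the split of reads among them is uncertain. Upstream of Gbp5, at chr3:142493550-142493883 and 3051 bases before its start site, the peak had 21.1, 22.6, 22.9, 23.5 and 19.8 CPM in KO and 10.9, 17.5, 16.6, 13.7 and 12.8 CPM in WT. The groups did not overlap, and the difference was 1.47-fold (95% interval 1.18 to 1.84) with an edgeR adjusted p of 0.0343. The other tested peak of Gbp5 had 10.2 CPM in KO and 9.44 in WT (edgeR adjusted p = 0.949). Its promoter peaks summed to 16.8 and 15.6 CPM (edgeR adjusted p = 0.975). All peaks of Gbp5 summed to 56.5 ± 5.26 CPM in KO and 45.9 ± 4.09 in WT (SD, n = 5), 1.19-fold with an edgeR adjusted p of 0.212. The call of the peak 3051 bases upstream held in 7 of 18 alternatives. It was lost without any of Sample_2268_KO, Sample_2269_KO, Sample_2270_KO, Sample_2271_KO, Sample_2273_WT, Sample_2276_WT or Sample_2277_WT (edgeR adjusted p up to 0.152), and had an edgeR adjusted p of 0.0893 with the libraries merged.

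Upstream of Gbp9 the direction was the opposite. Its called peak, chr5:105113764-105113961, lies 3472 bases before the start site of Gbp9 and just beyond the end of Gbp4. It had 13.9, 7.52, 3.05, 7.67 and 7.20 CPM in KO and 10.9, 17.0, 13.3, 17.6 and 16.5 CPM in WT. Sample_2268_KO lay inside the WT range and the other 4 KO libraries were below it. The peak fell to 0.542-fold (95% interval 0.401 to 0.733) with an edgeR adjusted p of 0.00647, and the call held in 16 of 17 alternatives, with DESeq2 the exception (adjusted p 0.170). A second peak between the same genes, 4490 bases before the start site, had 18.9 CPM in KO and 20.5 in WT, and the start-site peak of Gbp9 had 14.3 and 13.9.

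Gbp3 had the next smallest p among gene sums after Epsti1. Its sums were 42.3, 49.8, 53.3, 51.3 and 49.5 CPM in KO and 41.5, 34.5, 43.6, 39.7 and 33 in WT, with Sample_2268_KO inside the WT range. The difference was 1.28-fold with an edgeR adjusted p of 0.0651, and it passed without Sample_2268_KO (edgeR adjusted p = 0.0383) or without Sample_2275_WT (edgeR adjusted p = 0.0320). Gbp2, Gbp4 and Gbp7 had log2 fold changes between -0.13 and -0.02 and did not pass. The start-site peak of Gbp2 was low, at 5.22 ± 2.26 CPM in KO and 7.26 ± 1.80 in WT (SD, n = 5).

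The immunity-related GTPases, smaller proteins that act with the guanylate-binding proteins at vacuoles, had 15 tested peaks and no call by edgeR. Irgm1 summed to between 128 and 170 CPM in KO and between 116 and 138 in WT, 1.11-fold with an edgeR adjusted p of 0.352. Igtp, Irgm2 and Iigp1 had gene log2 fold changes between -0.10 and -0.09. The start-site peak of Igtp, with its GAS and ISRE matches, had 11.4 CPM in KO and 12 in WT. Of the Mx GTPases, which trap viral nucleoproteins, Mx2 had 36.0 ± 6.75 and 36.4 ± 5.54 CPM (SD, n = 5).

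The remaining kinds of gene had no called member other than Epsti1. Bst2, or tetherin, which holds budding virions at the cell surface, had 55.3 ± 5.60 CPM in KO and 65.7 ± 4.71 in WT (SD, n = 5), 0.875-fold with an edgeR adjusted p of 0.361. Parp9, an ADP-ribosyltransferase, was at 33.6 ± 2.80 and 29.7 ± 3.84 CPM, 1.16-fold with an edgeR adjusted p of 0.498. Stat2, the subunit of ISGF3, had 61.2 ± 4.75 and 67.0 ± 4.62 CPM, Cxcl10, a chemokine for CXCR3, had 27.1 ± 4.97 and 27.7 ± 5.09, and Usp18, the protease that removes the ubiquitin-like ISG15, had 104 ± 10.9 and 103 ± 6.50. Isg15 itself had a single peak, over its start site, with 15.1 ± 3.74 CPM in KO and 15.8 ± 1.52 in WT. Ifi44 had too few counts to test, at 1.56 ± 0.882 and 3.37 ± 1.70 CPM.

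Summed by gene, 1 of 36 members passed, Epsti1, against 2.19% of all 12489 genes. DESeq2, fitted without the edgeR count filter, called 0 of 37 members and 103 of all 14287 genes. At an unadjusted p under 0.05 there were 9 of 36 (25%), 7 higher and 2 lower, against 12.5% of all genes. The median log2 fold change was 0.02 over the members and -0.01 over all genes. For the 35 genes that did not pass, the approximate 95% interval lay within 2-fold in either direction for all 35 and within 1.5-fold for 32, and it included no change for 27. These intervals bound the differences that these libraries leave possible and do not show that the groups are equal.

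**Figure D3:**
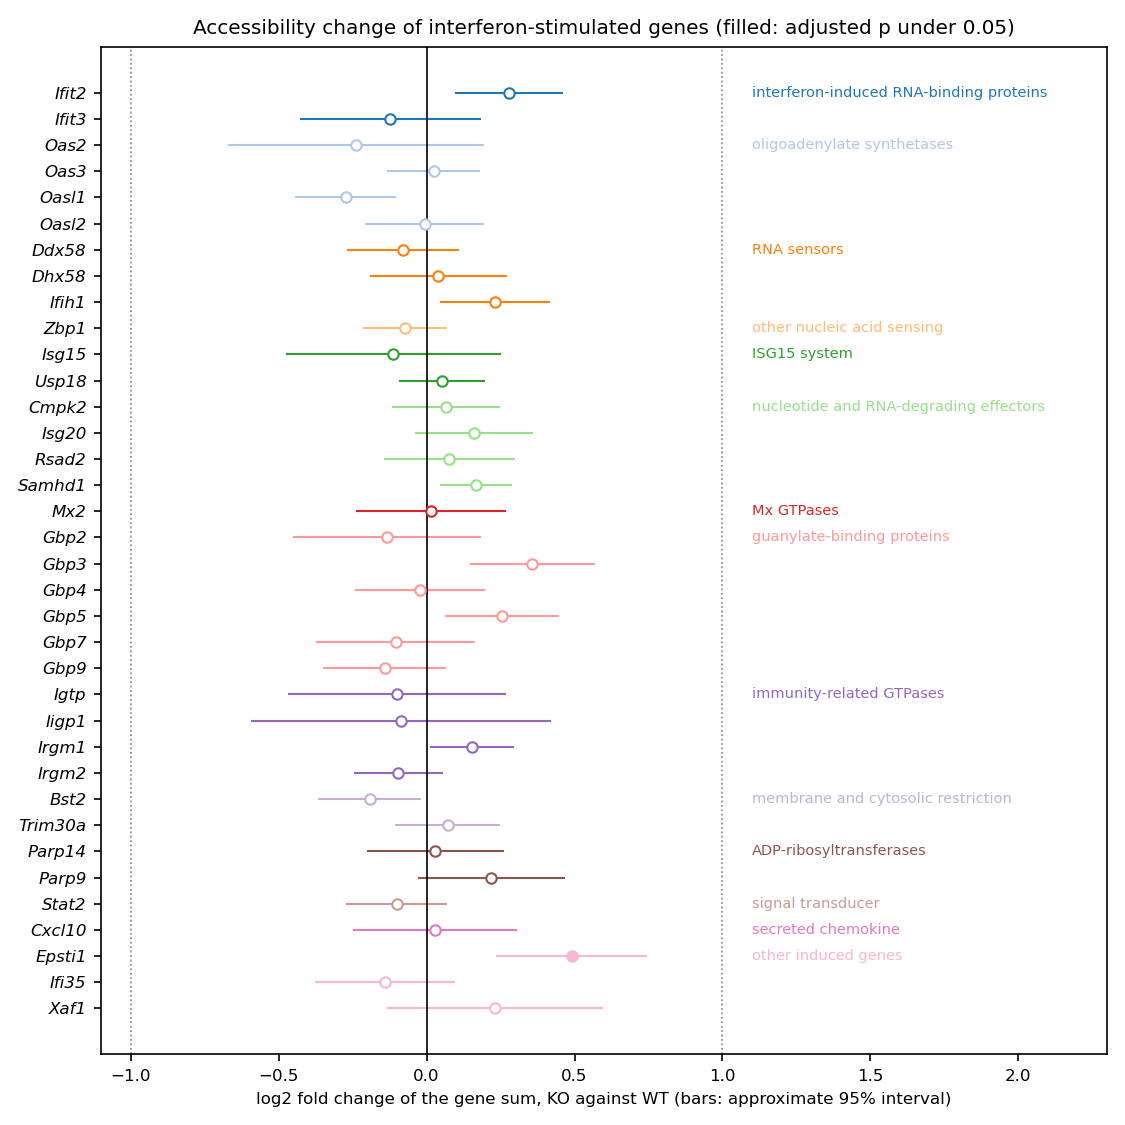
Log2 fold change of each gene's summed peaks, KO against WT, with approximate 95% intervals, for the 36 tested members coloured by kind and labelled at the right. Epsti1 is the only filled point, and all intervals of the other 35 lie inside the dotted lines at 2-fold.

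Promoter and other peaks of the set were compared directly. Of the 148 peaks 72 were annotated as promoter (48.6%, against 36.6% of all peaks). This split follows the annotation and misses some RefSeq start sites. A peak of Irgm2 just upstream of such a site and a peak of Trim30a over another count here as other peaks. Among tested peaks 2 of 50 promoter peaks passed, against 1.60% of all promoter peaks, and 4 of 38 other peaks passed, against 5.80% of all other peaks. By gene, 2 of 18 sums of other peaks passed (Epsti1, 3.03-fold, and Ifih1, 1.69-fold), against 6.55% of all such sums, and both held with the libraries merged (edgeR adjusted p of 2.54e-06 and 0.00915). The promoter peaks of the set summed to between 1033 and 1142 CPM per library in KO and between 1079 and 1124 in WT, which overlapped. The other peaks summed to between 754 and 790 CPM in KO and between 713 and 759 in WT, where only Sample_2272_KO lay inside the WT range. Their means were 777 ± 14.2 CPM in KO and 740 ± 18.8 in WT (SD, n = 5), a difference that was not tested.

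The ratio of promoter to other accessibility could be tested by limma in 15 members, and 2 of them passed, against 1.22% of all 4676 genes tested. Each of the 2 has a called intronic peak within its other-peak sum. The calls of that sum and of the ratio are therefore not independent of the peak call. In Epsti1 the ratio fell by 1.40 on the log2 scale (limma adjusted p = 0.00141). In Ifih1 it fell by 0.81 on the log2 scale (limma adjusted p = 0.0270). The Epsti1 result held with any 1 library left out but not with the libraries merged (limma adjusted p = 0.100). The Ifih1 result was lost with any of Sample_2268_KO, Sample_2269_KO, Sample_2270_KO, Sample_2271_KO, Sample_2273_WT, Sample_2274_WT or Sample_2277_WT left out (limma adjusted p up to 0.0694) and with merging (0.289). In Samhd1 the ratio was higher in KO by 0.34, with a limma adjusted p of 0.384.

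**Figure D4:**
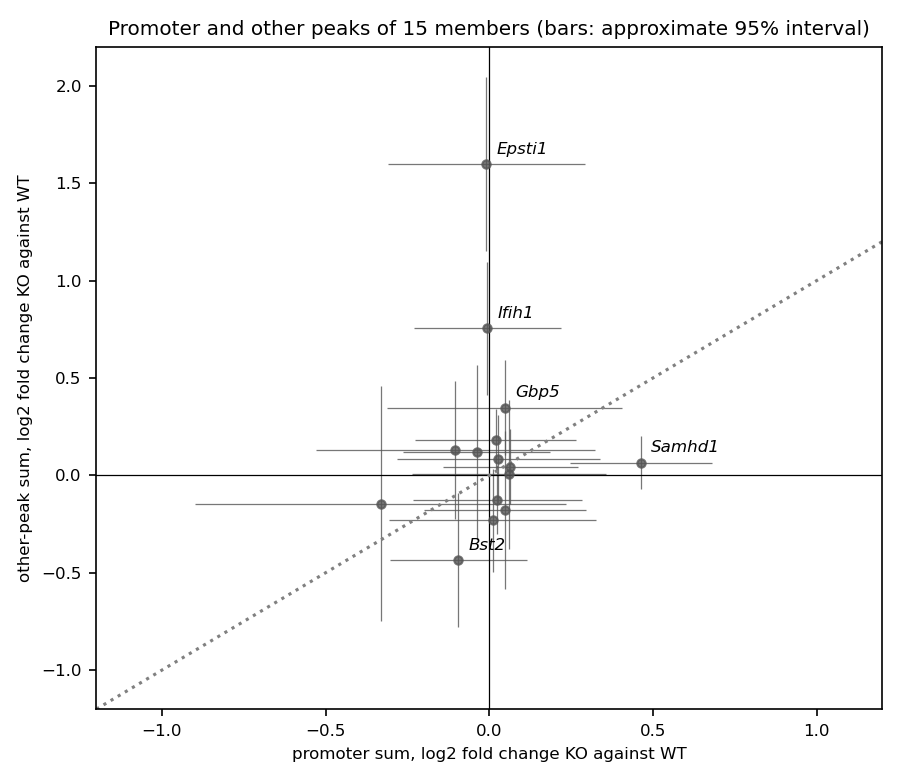
Log2 fold change of promoter sums (horizontal) against that of other-peak sums (vertical) for the 15 members with both, with approximate 95% intervals and a dotted line of equal change. Epsti1 and Ifih1 lie above the line near 0 on the promoter axis, and Samhd1 lies to the right near 0 on the other axis.

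Per kb of peak, the tested start-site peaks of the members were mostly lower than those of other genes in these cells. Members without a tested peak that the annotation places over a start site, such as Oasl1 and Oas3, are not in this comparison. The median WT level of the 26 start-site peaks was 65.6 CPM per kb, against 88.8 for all 8811, and 19 of the 26 lay below the latter. Isg15 was highest with 117 ± 11.3 CPM per kb in WT, followed by Usp18 with 101 ± 10.4, Rsad2 with 95.4 ± 9.85, Bst2 with 93.4 ± 10.3, Gbp4 with 92.9 ± 14.5 and Ifi35 with 92.8 ± 5.53 (SD, n = 5). This order, like the comparison with all start-site peaks, depends on peak width as well as on counts. The Isg15 peak was 135 bases wide with 15.8 CPM in WT, while that of Stat2 was 675 bases wide with 62.2 CPM. From Usp18 to Ifi35 neighbouring levels per kb differed by less than their SD. Epsti1 was lowest at 40.5 ± 7.53. In KO the same peaks stood at 112 ± 27.7 for Isg15, 94.4 ± 30.0 for Usp18, 103 ± 7.78 for Rsad2 and 40.7 ± 5.84 for Epsti1, and the log2 fold changes of the 26 ran from -0.60 to 0.58 with 13 above 0 and 13 below.

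**Figure D5:**
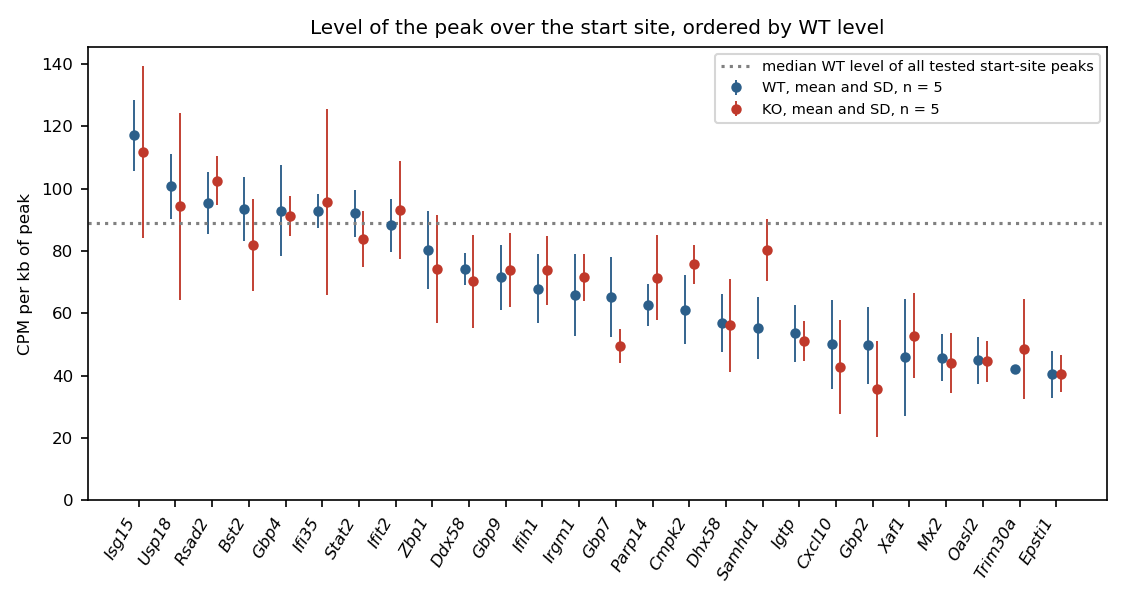
CPM per kb of the peak over the start site for 26 members, ordered by WT level, with the mean and SD of 5 WT (blue) and 5 KO (red) libraries and a dotted line at the median WT level of all tested start-site peaks. Samhd1 is the 1 member whose KO level passed the test, and 19 members have WT levels below the line.

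Peaks that hold an ISRE match were looked at as a group. Matches fell inside 15 member peaks of 14 genes, and 14 of these peaks could be tested. None passed edgeR's test, against 3.85% of all tested peaks and 0.738% of those over a start site. The annotation places the tested peaks of Irgm2 and Oas3 and 1 of Trim30a off a start site. At an unadjusted p under 0.05 there was 1 (Gbp2), against 13.6% of all tested peaks. DESeq2 called none of them, and 519 in the whole table of 61581 peaks. With shares this low, 14 peaks are too few for a count of 0 to set them apart from other peaks. The log2 fold changes of the 14 ran from -0.60 to 0.33, with 6 above 0 and 8 below and a median of -0.06. The peak over the start site of Ifit1 also holds ISRE matches, but it carries the symbol Ifit1bl2 and is not among the 15. It did not pass (edgeR adjusted p = 0.883). The sequence of the called peaks outside the promoter windows was not analysed here.

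A list of 99 other genes of interferon signalling gave 79 tested genes, of which 3 rose and none fell by edgeR, against 1.65% and 0.536% of all genes. If p is left unadjusted, 12 stood higher and 4 lower, against 6.72% and 5.74% of all genes. The 3 were Tyk2, a receptor kinase of type I interferon signalling (104 ± 16.6 against 74.9 ± 5.46 CPM, 1.37-fold, edgeR adjusted p = 0.000205), Ifngr1, the ligand-binding chain of the interferon gamma receptor (240 ± 16.6 against 198 ± 4.70 CPM, 1.2-fold, edgeR adjusted p = 0.00547), and Parp11 (195 ± 6.25 against 163 ± 8.02 CPM, 1.21-fold, edgeR adjusted p = 0.00536; SD, n = 5 throughout). Among its 277 tested peaks, 14 rose and 1 fell, against 2.94% and 0.911% of all tested peaks.

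Several of the called peaks of that list lay far from a start site. A peak 12257 bases upstream of Parp11 had 53.6 ± 3.56 CPM in KO and 22.9 ± 1.54 in WT (SD, n = 5), 2.32-fold with an edgeR adjusted p of 1.26e-13. A peak 13092 bases upstream of Ifngr1 had 81.2 ± 6.0 and 48.1 ± 2.78 CPM, 1.66-fold with an edgeR adjusted p of 6.60e-09. At Ifng, the gene of interferon gamma, peaks 33778 and 27923 bases upstream rose 2.81-fold and 3.29-fold (edgeR adjusted p of 7.29e-08 and 2.81e-06). The rest that rose belonged to Tgtp2 (3.62-fold), Trim14 (2.29-fold), Irf8 (2.18-fold), Ly6e (2.07-fold), Pias1 (1.98-fold), Tyk2 (1.81-fold and, over its start site, 1.36-fold), Socs3 (1.77-fold), Aim2 (1.59-fold) and Pias4 (1.46-fold), and a peak of Lgals9 fell to 0.594-fold. With DESeq2 the peaks of Socs3, Tyk2, Trim14, Lgals9, Aim2 and Pias4 did not pass, at adjusted p from 0.0504 (Socs3) to 0.394 (Pias4). Some large folds rest on low WT levels, 2.99 CPM at Tgtp2, 3.81 at the nearer Ifng peak and 4.23 at Trim14. Tgtp2 has a near-identical copy, Tgtp1, so its reads may be split. Groups overlapped at the 1.81-fold peak of Tyk2 and at none of the other 14, against 3.96% of all tested peaks without overlap. These peaks were picked by the test, which favours separated groups, so the separation is no further evidence.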

How the data were processed

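Counts per peak for 10 libraries and an annotation of the same peaks were deposited by the authors. The values are raw read counts, not normalized. Per the submitters' processing notes, the tools were bcl2fastq 2.20, Trimmomatic 0.36, Bowtie2 2.3.5, Picard, SAMtools 1.9, MACS2 2.1.2, deepTools 3.5.2 and 3.3.0, R 3.5.3, ChIPseeker 1.18.0 and DESeq2 1.22.2 with build mm10. The order of steps, duplicate removal, any shift of reads for the transposase, and whether peaks were called on pooled libraries are not given in the sources used here. Each peak was assigned to 1 gene by that annotation, which a distal peak need not act on.

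Here, peaks, and sums over all, promoter (every annotation that begins with Promoter) or other peaks of each symbol, were fitted whole with edgeR 4.0.16 (TMM, filterByExpr by group, quasi-likelihood test, Benjamini-Hochberg adjustment over everything tested, threshold 0.05), all 5 KO against all 5 WT libraries. The ratio of promoter to other sums was tested with limma 3.58.1 on log2 values with a pseudocount of 1 CPM, for genes with a mean count of at least 10 in each class. CPM use TMM-scaled in-peak totals. Intervals are 1.96 approximate standard errors, derived from the edgeR test statistic. Scripts were tested on simulated data. Totals of 673398 to 2184717 counts give a median of 5 to 17 counts per peak, and peaks in the low range have wide errors. DESeq2 1.42.0, limma-voom, other scalings and filters, thinning to the smallest total, merging and leaving out libraries were alternatives. Named with values were the 12 members with the smallest p of the gene fit, every member or peak called, and the 6 with the highest WT level per kb of a start-site peak; of the pathway list, called genes and peaks. The members and lists were chosen with earlier results of these data known.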

Additional observations from a re-analysis of the deposited data

How the results depend on the processing

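None of the 23 named peaks, sums and ratios changed direction under the alternatives that could test it. These were picked for a small p in the same counts, which the alternatives largely share, so the stable direction is no further evidence. Of 6 called member peaks, DESeq2 kept 1, thinning every library to the smallest total called 2 (Samhd1 and Gbp5) and left the other 4 too low to test, and leaving out the 3 libraries of lowest total or merging libraries within Poisson noise left 3 each. The 1 called gene sum became 0 with DESeq2, with thinning and with merging. In the 18 alternatives the sum of Epsti1 was called in 9, that of Gbp3 in 2 and that of Ifit2 in 1. An unchanged count of gene sums can thus stand for another gene. The 1 promoter sum became 0 with DESeq2, thinning and without the 3 lowest libraries, and the 2 other-peak sums became 0 with thinning, where that of Epsti1 was too low to test. The 2 promoter-to-other ratios became 1 without the 3 lowest libraries, and 0 with merging. With a mean count of at least 30 the count was 0 because neither gene was then tested. Leaving out 1 library at a time gave 3 to 5 member peaks, 0 to 2 gene sums, 0 to 1 promoter sums, 2 other-peak sums throughout and 1 to 2 ratios. DESeq2 also called fewer peaks of the whole table, 519 against 1345, and thinning 295; the cause was not tested for DESeq2, while thinning leaves fewer counts by construction. No paired analysis was possible because the labels give no pairing, litter or batch. Depth limits the low peaks: 60 of the 148 member peaks were too low to test.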

Other observations

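Mx1, a dynamin-like GTPase that blocks influenza virus in mice with an intact gene, was absent from the comparisons because no peak carries its symbol. Its gene number does stand beside 4 peaks without a symbol. The peak 29 bases upstream of its start site had 3.23 ± 1.37 CPM in KO and 5.62 ± 1.78 in WT (SD, n = 5) and was too low to test. The 1 tested peak, 18777 bases downstream, had 5.99 ± 2.24 and 7.89 ± 2.29 CPM, with overlapping groups and an edgeR adjusted p of 0.747. Herc6, the ligase of the ISG15 system, was left out for the same reason. The peak over its start site, chr6:57580933-57581152, is annotated to Ppm1k and had 12.2 ± 4.04 CPM in KO and 11.2 ± 2.43 in WT (SD, n = 5), with an edgeR adjusted p of 0.867. No library stood apart from its group by Dixon's test in any of the 46 sets of 5 values examined for the named peaks and sums.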
